A study of Mus musculus with 2 samples.

Results

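The barcodes described here are liver barcodes that carried several transcripts of a small set of redox and nitric oxide genes: Fmo1, Srxn1, Nos2, Ndrg1, Smox and Gclc, called the gate. A barcode was eligible with at least 200 genes, at most 25% mitochondrial UMIs (unique molecular identifiers, each standing for 1 captured transcript) and 0 UMIs over Ptprc, Ptprb and Dcn, which mark leukocytes, endothelium and fibroblasts. It was a member with at least 3 UMIs summed over the 6 gate genes and at least 2 of them detected. The rule took 449 of 5439 eligible barcodes, out of 5843 deposited: 35 of 2601 in the scramble-labelled library and 414 of 2838 in the shBicd2-labelled library. The gate values chose the members, so they are given as a description and support nothing.

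Each library came from livers of wild-type C57BL/6J mice that received an adeno-associated virus (AAV) at 4 weeks of age, 3 weeks before an intravenous injection of concanavalin A (Con A) at 15 mg/kg, and livers were collected 6 hours after it. Con A is a lectin that activates T cells and brings on acute hepatitis, and both libraries received it. The virus was AAV-scramble in one group and AAV-shBicd2, a short hairpin against the dynein adaptor gene Bicd2, in the other. Each group is 1 library, so there is no replicate check and no test. The number of mice behind a library, the promoter that drives the hairpin and the cells it reaches are not given in the sources used here.

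Hepatocytes keep reactive oxygen and electrophiles in check largely through the factor NRF2, which induces the enzymes that make glutathione, return oxidised thiols to their reduced form, supply NADPH and conjugate or export toxic products. Inflamed hepatocytes can also switch on the inducible nitric oxide synthase Nos2, which makes nitric oxide from arginine under the control of interferon gamma and NF-kB. Among the gate genes, Gclc encodes the catalytic subunit of the enzyme that limits glutathione synthesis, and Srxn1 encodes sulfiredoxin, which reactivates overoxidised peroxiredoxins. Fmo1 is a flavin monooxygenase, Smox oxidises the polyamine spermine and releases hydrogen peroxide, and Ndrg1 is a gene induced by hypoxia and other stress. NRF2 acts on genes through the antioxidant response element, for which the cores TGACNNNGC and TGAGNNNGC were searched on both strands of the 250 bases before the gene start in RefSeq (GRCm38.p6). The 2 cores differ at the 4th letter, so they cannot match the same letters on 1 strand, and the TGAG form was added after the sequence had been seen. Of 32851 such windows, 10.2% held the TGAC form and 14.4% the TGAG form.

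Windows of Srxn1 and Smox were in the sequence table. That of Srxn1 is shown because it held 2 matches to the TGAG form, in capitals, at -158 to -150 on the minus strand and at -45 to -37 on the plus strand, counted from the gene start. It held no match to the TGAC form. The window is chr2:152105274-152105523 on the plus strand.
Srxn1: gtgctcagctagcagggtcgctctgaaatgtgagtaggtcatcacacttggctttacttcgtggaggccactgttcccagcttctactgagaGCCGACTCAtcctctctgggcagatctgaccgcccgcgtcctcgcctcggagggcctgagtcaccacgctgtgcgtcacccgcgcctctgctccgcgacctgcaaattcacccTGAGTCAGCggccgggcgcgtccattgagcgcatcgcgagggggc
The Smox window, chr2:131491612-131491861 on the plus strand, held 1 match to the TGAC form, at -193 to -185 from the RefSeq start. Gene positions given below come from another annotation, in which Smox starts at 131491496, so the Smox window lies inside the gene there. By the same annotation Srxn1 starts at 152105516, and the Srxn1 window ends shortly past that start. The core of the hypoxia response element, ACGTG or GCGTG, was in 38.6% of all windows, once in that of Srxn1 at -94 to -90 on the minus strand and not in that of Smox. A match is a run of letters and no shown binding site.

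Libraries were of like depth, with medians of 1537 and 1537.5 UMIs per eligible barcode for scramble and shBicd2. They shared 3 barcode sequences. Bicd2 was not lower in the shBicd2-labelled library: it had 15.3 CPM (counts per 1000000 UMIs; 95% Poisson interval 12.0 to 19.3) over eligible barcodes in the scramble-labelled library and 19.2 CPM (15.6 to 23.3) in the shBicd2-labelled library. Members carried 1 and 24 Bicd2 UMIs. Directions below therefore compare the libraries as labelled. All intervals are at 95% and cover counting error only. Eligible barcodes of the scramble-labelled and shBicd2-labelled libraries also differed in median mitochondrial share, 0.184% and 0.347%. In the same order, the nuclear RNAs Neat1 and Malat1 stood at 67180 and 46379 CPM and at 36153 and 26358 CPM. The part of these differences in comparisons between the libraries was not tested.

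Members were a far larger share of the shBicd2-labelled library. They made up 1.35% of eligible barcodes (exact binomial interval 0.939% to 1.87%) in the scramble-labelled library and 14.6% (13.3% to 15.9%) in the shBicd2-labelled library, a ratio of 10.8 (7.67 to 15.8). Deeper barcodes have more chance to reach 3 gate UMIs, and the share was larger at each greater depth in the shBicd2-labelled library. Under 1000 UMIs it was 0.448% and 3.86%, and from 1000 to 2000 UMIs 0.385% and 12.9%. From 2000 to 4000 UMIs it was 1.97% and 23.1%. At 4000 UMIs or more it was 9.92% and 30.6%, a ratio of 3.08 (1.66 to 6.14). The direction was the same at each depth, and the ratio was least among the deepest barcodes. With each barcode thinned to 1000 UMIs, 6 of 1931 (0.311%) and 161 of 2061 (7.81%) remained members.

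**Figure D1:**
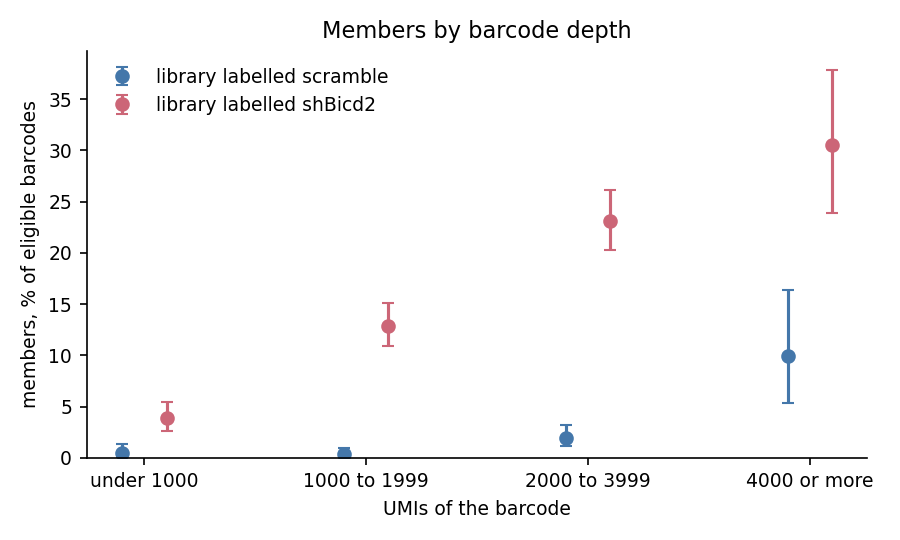
Share of eligible barcodes that were members (vertical axis, percent) by UMIs of the barcode (horizontal axis) in both libraries, with exact 95% binomial intervals for counting error. Points of the shBicd2-labelled library lie above those of the scramble-labelled library at each depth, from 3.86% against 0.448% to 30.6% against 9.92%.

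The same gate was passed by barcodes with marker RNA of other cell types. Among barcodes with a Ptprc UMI, set aside by the rule, 5 of 155 (3.23%, interval 1.06% to 7.37%) passed in the scramble-labelled library and 16 of 114 (14.0%, 8.24% to 21.8%) in the shBicd2-labelled library, at median depths of 1230 and 1080.5 UMIs. Those shares are close to the members' shares, so the share alone is not above what barcodes with a leukocyte gene gave, and the part of free RNA in it was not tested. Barcodes with at least 3 UMIs of 13 macrophage markers passed in 0 of 18 and 0 of 36 cases, which allows up to 16.7% and 8.33% by a limit of 3 counts. Barcodes with at least 3 UMIs of 13 neutrophil markers passed in 0 of 22 and 23 of 111 cases, 20.7% (13.6% to 29.5%) in the shBicd2-labelled library. Of those 111 barcodes, 90 were eligible, and 20 of the 23 that passed were members themselves. This neutrophil set is thus not apart from the members. Without any barcode holding an S100a8 or S100a9 UMI, a check added after seeing the data, 30 and 301 members remained, and the share in the shBicd2-labelled library was 13.3%.

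The make-up of the gate differed between the libraries. In the scramble-labelled library, Nos2 was detected in 28 of the 35 members and Gclc in 26, and 20 members held both. Smox was found in 7, Srxn1 in 5, Ndrg1 in 5 and Fmo1 in 3 of them. There, 31 members held only 2 gate genes and none held 4. In the shBicd2-labelled library, Gclc was detected in 277 of 414 members, Nos2 in 235, Smox in 235, Fmo1 in 148, Srxn1 in 147 and Ndrg1 in 113. Its members held 2 gate genes in 194 cases, 3 in 139, 4 in 60, 5 in 16 and all 6 in 5. The median member had 3 gate UMIs in the scramble-labelled library and 5 in the shBicd2-labelled library, and the highest had 7 and 39. Scramble members were thus mostly barcodes with Nos2 and Gclc, while shBicd2 members drew on all 6 genes.

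Each gate gene is given with its level over all eligible barcodes of the scramble-labelled and the shBicd2-labelled library, in that order, and its GRCm38 position. Gclc (ENSMUSG00000032350, chromosome 9, 77754535 to 77794485, plus strand) had 113 and 363 CPM, in a ratio of 3.23 (2.93 to 3.56). Nos2 (ENSMUSG00000020826, chromosome 11, 78920787 to 78960254, plus strand) had 70.3 and 168 CPM, in a ratio of 2.39 (2.11 to 2.72). These were the gate genes with the smallest ratios and those with the highest levels in the scramble-labelled library. Smox (ENSMUSG00000027333, chromosome 2, 131491496 to 131525922, plus strand) had 18.5 and 127 CPM, in a ratio of 6.85 (5.48 to 8.66). Srxn1 (ENSMUSG00000032802, chromosome 2, 152105516 to 152111376, plus strand) had 8.81 and 69.8 CPM, in a ratio of 7.91 (5.74 to 11.2). Ndrg1 (ENSMUSG00000005125, chromosome 15, 66929318 to 66969640, minus strand) had 6.92 and 57.2 CPM, in a ratio of 8.25 (5.75 to 12.2), and Fmo1 (ENSMUSG00000040181, chromosome 1, 162829561 to 162866610, minus strand) had 6.29 and 64.9 CPM, in a ratio of 10.3 (7.09 to 15.5). All 6 are protein-coding, and Fmo1 had the largest ratio.

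At the threshold, members with exactly 3 gate UMIs numbered 21 in the scramble-labelled library and 129 in the shBicd2-labelled library. Just outside it were 43 and 206 barcodes with 1 UMI each of 2 gate genes. A further 49 and 115 barcodes had 3 or more UMIs of a single gate gene.

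Whether the gate genes kept company with each other was read by leaving out 1 gate gene at a time. Members were then chosen by the other 5 genes under the same rule, and the left-out gene was compared with barcodes of the same library and depth that had 0 UMIs of the other 5. In the shBicd2-labelled library, each left-out gene was higher in the barcodes that the other 5 had chosen. Fmo1 had 189 UMIs in 360 such barcodes and 15 in their matches, 206 against 17.0 CPM, a ratio of 12.1 (exact conditional interval 7.16 to 22.1). It was detected in 27.5% against 4.17% of barcodes.

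Nos2 followed with 329 against 86 UMIs in 293 pairs, 452 against 119 CPM, a ratio of 3.80 (2.99 to 4.88), and detection in 39.2% against 17.7%. The 6 genes were put together with these data in view, so these ratios describe their joint detection and are no independent evidence of it. Ndrg1 had 110 against 29 UMIs, a ratio of 3.66 (2.41 to 5.72), and Srxn1 147 against 40, a ratio of 3.56 (2.49 to 5.18). Smox had 197 against 75 UMIs, a ratio of 2.61 (1.99 to 3.45). Gclc had 488 against 181 UMIs, a ratio of 2.69 (2.27 to 3.21), but its detection, 45.0% (38.7% to 51.4%) against 34.1% (28.3% to 40.4%), differed less than the counts did. The Gclc difference thus lay in UMIs per barcode more than in the number of barcodes.

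The same reading in the scramble-labelled library gave few UMIs, in far fewer barcodes. Between 8 and 31 barcodes were chosen and matched, and the left-out gene had 0 or 1 UMI in them. Gclc had 1 UMI in 10 barcodes against 5 in their matches, Nos2 1 in 8 against 0, Srxn1 1 in 30 against 2 and Smox 1 in 28 against 1. Fmo1 in 31 barcodes and Ndrg1 in 29 had 0 on both sides, which allows up to 3 UMIs in each set. The exact upper limits on detection were 11.2% for Fmo1, 11.9% for Ndrg1, 17.2% for Srxn1 and 18.3% for Smox, each below the share found in the shBicd2-labelled library. For Nos2 and Gclc they were 52.7% and 44.5%, too wide to compare. Fmo1, Ndrg1, Srxn1 and Smox were also rarer over all eligible barcodes of the scramble-labelled library. Srxn1 was detected in 1.58% of them against 9.83% in the shBicd2-labelled library, and Smox in 3.04% against 17.4%. The limits were not set against these levels, so they do not show weaker joint detection. The difference between the libraries in these ratios was not tested.

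**Figure D2:**
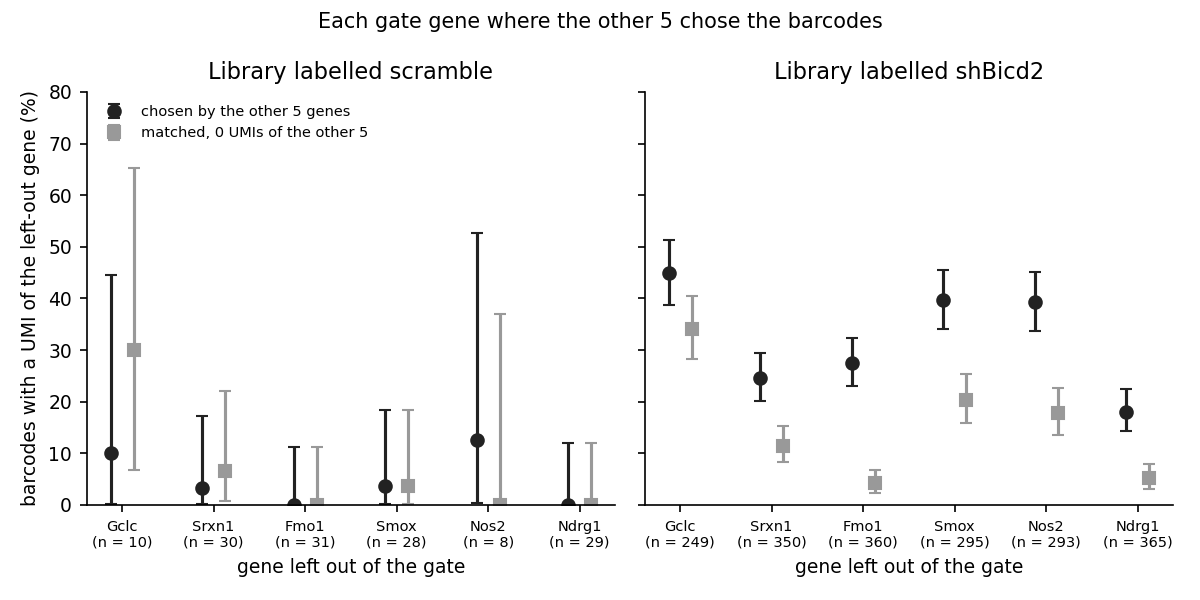
Percent of barcodes with a UMI of each gate gene (vertical axis) when the other 5 genes chose the barcodes (black circles) and in depth-matched barcodes with 0 UMIs of the other 5 (grey squares), with exact 95% binomial intervals; n is the number of pairs. In the shBicd2-labelled library the black points lie above the grey for all 6 genes, from 27.5% against 4.17% for Fmo1 to 45.0% against 34.1% for Gclc, and in the scramble-labelled library the intervals overlap throughout.

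Hepatocyte RNA was present, though not at levels that set members apart. All 18 hepatocyte markers were detected in the members of both libraries, with a summed level of 12007 CPM in 34 matched scramble members and 17719 CPM in 404 matched shBicd2 members, where CPM from here on is per 1000000 UMIs outside the gate. Depth-matched barcodes with 0 gate UMIs, called comparison barcodes, had 13030 and 18966 CPM. Albumin transcripts (Alb) were at 620 and 1290 CPM in matched members, no higher than the 846 and 1477 CPM of barcodes with a Ptprc UMI, so the level of Alb does not tell hepatocytes from other barcodes here. Macrophage markers summed to 48.9 CPM in scramble members and 113 CPM in shBicd2 members, against 49.4 and 96.6 CPM in comparison barcodes. Of the 16 markers in this sum, 3 were detected in scramble members and 11 in shBicd2 members, against 3 and 14 in comparison barcodes. Adgre1, Csf1r, Timd4 and Vsig4 were at 0 in the members of both libraries. The summed ratio in the shBicd2-labelled library was 1.17 (0.878 to 1.56). Of the 2 markers with enough UMIs for a ratio there, 1 was at least 1.5-fold higher in members, and their median log2 ratio was 0.86. The part of macrophage RNA in the results was not tested. T and NK cell markers held 1 and 13 UMIs, B cell markers 2 and 22, and endothelial markers 2 and 83, against 0 and 41 endothelial UMIs in comparison barcodes. In shBicd2 members 10 of 14 endothelial markers were detected, summing to 83.6 against 43.5 CPM, and Clec4g, Kdr, Ptprb and Tek were at 0 in both sets. The part of endothelial RNA in the results was not tested. Neutrophil genes other than the hepatocyte-expressed Lcn2 were uneven: S100a8 had 92 UMIs in shBicd2 members against 49 and S100a9 116 against 68. Their part in the results was not tested beyond the check without those barcodes.

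The label of oxidative stress held in part in the shBicd2-labelled library, mainly in members with 6 or more gate UMIs. It was not shown in the scramble-labelled library. Of 42 NRF2 targets and thiol defence genes outside the gate, 32 had at least 20 UMIs in the shBicd2-labelled library: 14 were at least 1.5-fold higher in members than in comparison barcodes, 1 was at least 1.5-fold lower, and the median log2 ratio was 0.47. Over all 8086 genes measured there, 13.4% were at least 1.5-fold higher and 10.4% lower, with a median of 0.03. The summed list stood at 9064 CPM in shBicd2 members with 6 or more gate UMIs. It was at 6676 CPM in those with 3 and 6765 in those with 4 or 5. Barcodes with 1 UMI each of 2 gate genes, outside the rule, had 7254 CPM, and barcodes with 0 had 5835. In the scramble-labelled library 15 of the list were measured, 4 higher and 2 lower, with a median of 0.01, where 14.1% of 1852 genes were higher and 14.5% lower and the median was -0.01. No test was made of a list, since the members were chosen on these same barcodes. Scramble members are called by the rule alone in what follows.

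Among the NRF2 genes, the glucuronate maker Ugdh stood out by its depth. Ugdh, which supplies UDP-glucuronate for conjugation, had 862 UMIs in shBicd2 members and 192 in comparison barcodes, 869 against 204 CPM, a ratio of 4.26 (3.64 to 5.01). It was detected in 63.9% of members and 30.7% of comparison barcodes. Ugdh had 34 and 29 UMIs in the scramble-labelled library, a ratio of 1.16 (0.687 to 1.98), so the groups there did not differ beyond counting error. Gclm, the regulatory partner of Gclc, had 79 against 22 UMIs in the shBicd2-labelled library, a ratio of 3.41 (2.10 to 5.75), and Pgd, an NADPH-making enzyme of the pentose phosphate pathway, 127 against 36, a ratio of 3.35 (2.30 to 4.99). Hmox1, heme oxygenase, had 928 against 572, a ratio of 1.54 (1.39 to 1.71), and Mafg, a DNA-binding partner of NRF2, 528 against 314, a ratio of 1.60 (1.39 to 1.84). These 5 genes were all higher in members.

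Other well-known members of the list, named after their values were seen, lay on both sides. Txnrd1, thioredoxin reductase, had a ratio of 2.01, Gsr, glutathione reductase, 1.62, and the exporter Abcc2 2.36. Nfe2l2, which encodes NRF2 itself, had 381 against 366 UMIs, a ratio of 0.988 (0.854 to 1.14), and Keap1, which restrains it, 196 against 181, a ratio of 1.03 (0.836 to 1.27). The transcripts of the pathway's sensor and factor were thus level while many of its targets were higher. Gpx1, a glutathione peroxidase, was lower at 0.792 (0.735 to 0.853), and Txnip, an inhibitor of thioredoxin, was the only measured gene of the list past 1.5-fold in the lower direction, at 0.572 (0.434 to 0.751).

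Hypoxia and glycolysis genes of the shBicd2-labelled library had 8 of 30 at least 1.5-fold higher, none lower and a median log2 ratio of 0.24. Over all 8086 genes there, 13.4% were higher and 10.4% lower. NF-kB targets and chemokines, described below, had a higher median of 0.29, with 10 of 22 higher. Pfkfb3, a driver of glycolysis, had 1238 against 779 UMIs, a ratio of 1.51 (1.38 to 1.65), and Ero1l, an oxidase of the endoplasmic reticulum, 620 against 347, a ratio of 1.70 (1.49 to 1.94), of which 41 UMIs were in 1 member. Vegfa, the vascular growth factor, was at 1.20 (1.13 to 1.28). Ldha and Gapdh, enzymes of glycolysis, were at 0.934 (0.823 to 1.06) and 0.977 (0.860 to 1.11), so these 2 did not stand out, whereas Pfkp, a phosphofructokinase of glycolysis, had 62 against 18 UMIs, a ratio of 3.27 (1.91 to 5.88). The hypoxia list of the scramble-labelled library had 3 higher and 3 lower of 23 (13.0% each), with a median of -0.01. All genes there had 14.1% higher and 14.5% lower, so this list lay near that background.

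The 20 highest ratios in the shBicd2-labelled library, among genes with at least 50 UMIs, were led by Duox2, a dual oxidase that makes hydrogen peroxide. Duox2 had 50 UMIs in members and 3 in comparison barcodes, a ratio of 15.8 (5.11 to 79.3), with a UMI in 7.18% of members. The growth factor gene Btc (betacellulin) had 69 against 9 UMIs, a ratio of 7.28 (3.62 to 16.6), and Bid, a promoter of apoptosis, 58 against 10, a ratio of 5.51 (2.79 to 12.1). A kinase of cytokine receptors, Jak2, had 86 against 19, a ratio of 4.30 (2.59 to 7.48). Collagen genes Col4a2 and Col12a1 had ratios of 4.50 and 3.45. The rest of the 20 were Tbc1d1, Car8, Ugdh, Il20rb, Sugt1, Polk, Neurl3, Ugt2b35, Rell1, Ppp4r4, Gclm, Pgd, Slc38a7 and Pfkp, between 3.27 and 4.56. In the scramble-labelled library 1 of the 20, Ugdh, had 20 UMIs or more. Among the rest, Neurl3 and Pfkp each had 6 UMIs in scramble members and 0 in comparison barcodes, at least 1.98-fold higher against 3 counts, with 5 of the 6 Pfkp UMIs in 1 member.

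The lowest ratio belonged to the histone gene Hist1h2ac, with 9 UMIs in members and 72 in comparison barcodes, 0.119 (0.0522 to 0.238). G6pc, the last step of glucose release, had 16 against 48 UMIs, a ratio of 0.317 (0.168 to 0.567), and Socs2, a brake on growth hormone signalling, 51 against 131, a ratio of 0.370 (0.262 to 0.515). Socs2 was the only one of the 10 lowest with 20 UMIs in the scramble-labelled library, where it was lower as well, 42 against 64, a ratio of 0.650 (0.430 to 0.975). The other 7 were Mirg, Derl3, Cyp2j5, Vipas39, Tm7sf2, Sdf2l1 and Dcun1d3, between 0.298 and 0.390. Derl3 and Sdf2l1 serve protein quality control in the endoplasmic reticulum, and Tm7sf2 belongs to sterol synthesis.

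**Figure D3:**
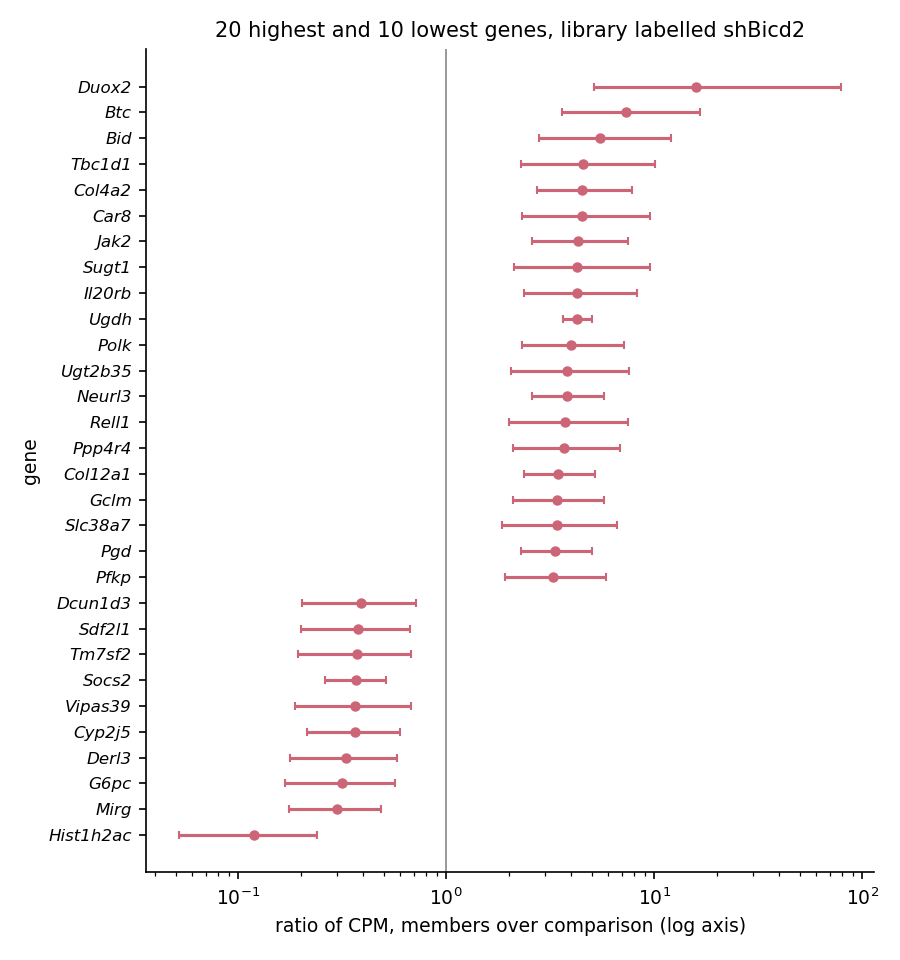
Ratio of CPM in members over depth-matched comparison barcodes (horizontal log axis) for the 20 highest and 10 lowest genes of the shBicd2-labelled library, with exact conditional 95% intervals. Duox2 is highest at 15.8 with a wide interval, Ugdh has the narrowest interval of the 20, and Hist1h2ac is lowest at 0.119.

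Several metabolic and stress programmes were lower in shBicd2 members. The background for the counts below is all 8086 genes there, with 10.4% at least 1.5-fold lower and 13.4% higher. Sterol and fatty acid synthesis genes had a median log2 ratio of -0.51, with 11 of 25 at least 1.5-fold lower and none higher. Hmgcs1, an early enzyme of cholesterol synthesis, had 212 against 390 UMIs, a ratio of 0.516 (0.435 to 0.612), and Msmo1, a later one, 250 against 399, a ratio of 0.595 (0.506 to 0.699). Insig2, a brake on the pathway, was higher at 1.29 (1.18 to 1.42). Gluconeogenesis and amino acid breakdown genes had 7 of 24 lower and none higher, with a median of -0.42. Mat1a, which makes the methyl donor S-adenosylmethionine, was at 0.610 (0.584 to 0.637), and Pck1, the rate-setting enzyme of gluconeogenesis, at 0.686 (0.626 to 0.751). Urea cycle genes had 2 of 7 lower and a median of -0.51, with Cps1, which admits ammonia to the cycle, at 0.666 (0.586 to 0.755). Fasting and peroxisome genes had 6 of 14 lower and 1 higher, with a median of -0.47. Polyamine, arginine and nitric oxide genes outside the gate had 4 of 16 higher and 2 lower, with a median of -0.08.

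Chaperone genes were also lower in shBicd2 members, where 10.4% of all genes were at least 1.5-fold lower and 13.4% higher. Heat shock chaperones had 7 of 19 lower, none higher and a median of -0.40, with Hsp90aa1 at 566 against 1055 UMIs, a ratio of 0.509 (0.459 to 0.565). Unfolded protein response genes had 9 of 22 lower, 3 higher and a median of -0.30, with the chaperone Hspa5 of the endoplasmic reticulum at 694 against 1201 UMIs, a ratio of 0.549 (0.499 to 0.603). Immediate early genes had 6 of 19 lower, 1 higher and a median of -0.46, with Jun at 0.515 (0.477 to 0.557). That median was -0.07 among barcodes without EGFP. The EGFP sequence, a reporter in the reference, was itself uneven after depth matching. It was found in 26.2% (22.0% to 30.8%) of matched members and 39.1% (34.3% to 44.1%) of comparison barcodes. Before matching, EGFP was in 27.1% of shBicd2 members and 26.6% of all barcodes with 0 gate UMIs in that library. Its part in these results was read by leaving out barcodes with EGFP, where medians were 0.74 for NRF2 genes, 0.71 for hypoxia genes and -0.72 for sterol genes, the same signs at larger size. Neat1, a nuclear RNA, was higher in members at 59479 against 40602 CPM of all UMIs. With totals taken without Malat1, Neat1 and mitochondrial UMIs, the medians were 0.50 for NRF2 genes, 0.27 for hypoxia genes, -0.48 for sterol genes and -0.37 for heat shock chaperones.

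Scramble members had their highest medians, of the 12 lists plotted, in immune genes. Over all 1852 genes of that library, 14.1% were at least 1.5-fold higher and 14.5% lower. NF-kB targets and chemokines had 7 of 16 at least 1.5-fold higher, none lower and a median of 0.38, and interferon gamma targets 7 of 19 higher, 1 lower and a median of 0.37. The chemokine Ccl2, which draws monocytes, had 57 UMIs in members against 17 in comparison barcodes, a ratio of 3.32 (1.91 to 6.09), and Cxcl9, which draws T cells, 229 against 82, a ratio of 2.77 (2.14 to 3.61). Cxcl10 had 494 against 232, a ratio of 2.11 (1.80 to 2.48), and Cxcl2, which draws neutrophils, 121 against 59, a ratio of 2.03 (1.48 to 2.82). The highest single member held 139 of the Cxcl10 UMIs, and for Cxcl2 and Ccl2 the highest held 39 and 24. The log2 ratio of Cxcl2 turned to -0.10 without barcodes holding S100a8 or S100a9 and to -2.03 without Nos2 in the gate. Gbp5, a guanylate-binding protein named after its values were seen, had 69 against 13, a ratio of 5.26 (2.88 to 10.4). With a gate of at least 4 UMIs, which leaves 14 scramble members, the interferon gamma median was -0.34 and Ccl2 lay below 1, so the scramble values rest on few barcodes.

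The same chemokines stood differently in shBicd2 members. Ccl2 was higher there too, 909 against 476 UMIs, a ratio of 1.81 (1.62 to 2.03), and Gbp5 247 against 88, a ratio of 2.67 (2.08 to 3.44). Cxcl9 was level at 1.02 (0.934 to 1.12), Cxcl10 was lower at 0.781 (0.729 to 0.836) and Irf1, the factor that interferon gamma induces, lower at 0.590 (0.544 to 0.639). The interferon gamma list had 4 of 24 higher (16.7%) and 1 lower, with a median of 0.09. Over all genes there, 13.4% were higher and 10.4% lower, so the higher share of this list lay near the background. The NF-kB list had 10 of 22 higher and none lower, with a median of 0.29.

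**Figure D4:**
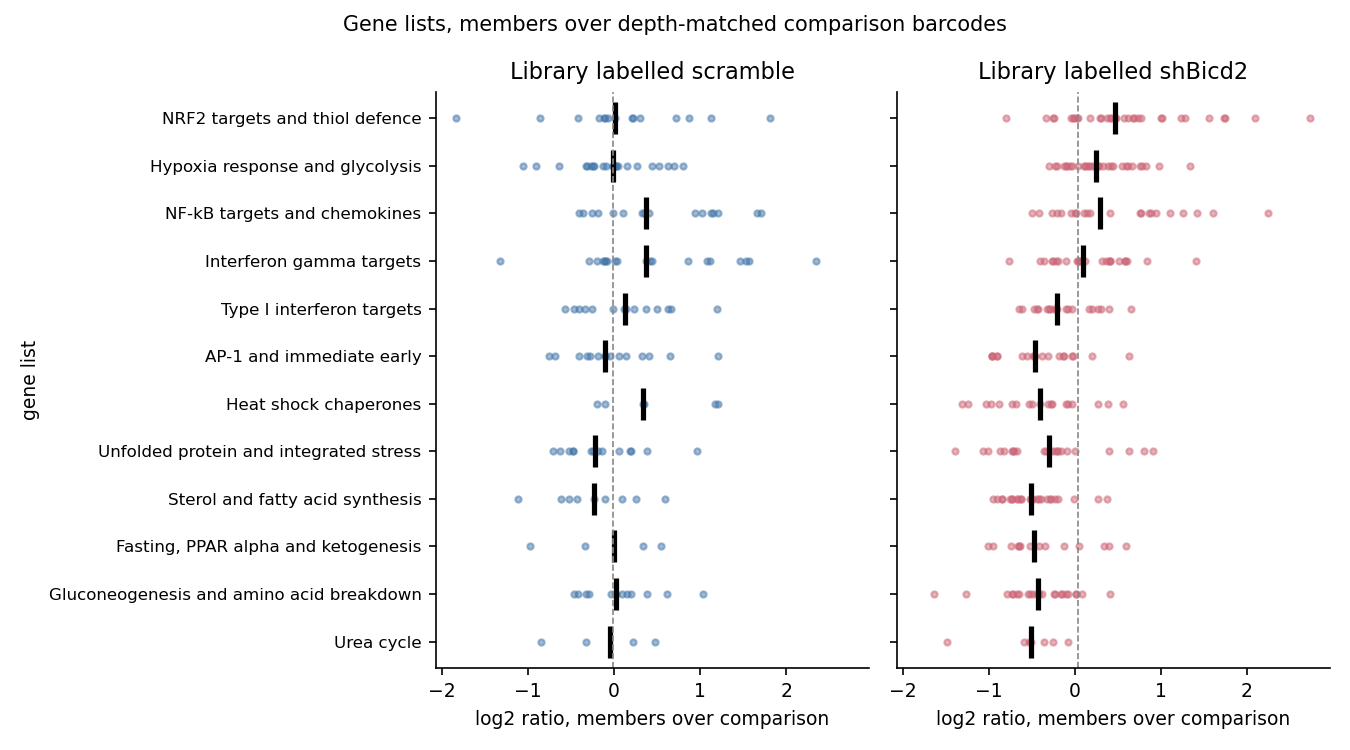
Log2 ratio of members over depth-matched comparison barcodes (horizontal axis) for each gene with at least 20 UMIs (dots) in 12 gene lists (vertical axis), with the list median (black bar) and the median of all genes (dashed line), per library. In the shBicd2-labelled library the NRF2 median is 0.47 and the sterol median -0.51, while in the scramble-labelled library the NF-kB and interferon gamma medians, 0.38 and 0.37, lie highest.

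The shBicd2 members were also split by Nos2, itself a gate gene. Members without it needed 3 UMIs of the other 5 genes, while those with it could pass with fewer, so the rule selects the 2 sets differently and the values are a description. The 235 members with a Nos2 UMI (median 2424 UMIs) and the 179 without (2204 UMIs) had levels of 2 redox genes whose intervals span 1: Ugdh 800 against 883 CPM, a ratio of 0.905 (0.791 to 1.04), and Gclm 78.2 against 71.1 CPM, a ratio of 1.10 (0.687 to 1.78). The NRF2 list had 7 of 32 at least 1.5-fold higher with Nos2 and 3 lower, with a median of 0.13, where 10.8% of 6384 genes were higher and 22.3% lower and the median was -0.15. Immune genes were higher with Nos2. Interferon gamma targets had 14 of 23 higher, NF-kB targets 12 of 22, type I interferon targets 9 of 17 and immediate early genes 10 of 19, with medians of 0.67, 0.62, 0.63 and 0.59.

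Named genes carried the same split. Gbp5 had 226 UMIs with Nos2 and 40 without, 361 against 91.7 CPM, a ratio of 3.93 (2.80 to 5.65), and Cxcl10 1396 against 319, a ratio of 3.05 (2.69 to 3.45). Jak2 was at 3.83 (2.15 to 7.33) and Duox2 at 3.17 (1.52 to 7.42), so most UMIs of these 2 of the 20 highest genes lay in members with Nos2, 77 and 41 of them against 14 and 9 without. Txnip, low in members as a whole, had the highest ratio of this split, 5.43 (2.80 to 11.8). Metabolic genes ran the other way: 17 of 25 sterol genes and 12 of 22 gluconeogenesis genes were at least 1.5-fold lower with Nos2, with medians of -0.82 and -0.60. Only 7 members of the scramble-labelled library lacked Nos2, too few for this split.

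In the shBicd2-labelled library, Ugdh was higher in each class with more gate UMIs. Ugdh stood at 225 CPM (204 to 248) with 0 gate UMIs, 294 with 1, 335 with 1 each of 2 genes, 364 in members with 3, 652 in members with 4 or 5 and 1292 (1189 to 1403) in members with 6 or more. It thus differed little across the threshold and most within the members. Barcodes with 3 or more UMIs of a single gate gene, which the rule leaves out, had 647 CPM (550 to 757), as much as members with 4 or 5. The summed NRF2 list stood at 5835 CPM (5726 to 5945) with 0 gate UMIs, 7254 (7020 to 7493) in barcodes with 1 UMI each of 2 genes, 6676 (6394 to 6967) in members with 3, 6765 in members with 4 or 5 and 9064 (8786 to 9349) in members with 6 or more. Barcodes with 1 UMI each of 2 gate genes were thus above members with 3 to 5 gate UMIs on this list. Those with 3 or more UMIs of a single gate gene were not, at 6572 CPM (6253 to 6903). With 0 gate UMIs, in members with 3 and in members with 6 or more, Gclm stood at 35.1, 44.3 and 122 CPM. Duox2 stood at 6.92, 6.32 and 78.8 CPM in these classes, the last holding 172 members. In members with 4 or 5 gate UMIs, Gclm was at 39.7 CPM, close to its level with 0, and Duox2 at 43.0 CPM (22.9 to 73.5), already above it. Alb ran from 2153 CPM with 0 gate UMIs to 1295 in members with 6 or more. In the scramble-labelled library Ugdh went from 344 CPM with 0 gate UMIs to 270 in the 4 members with 6 or more, an interval of 73.7 to 692, while Gbp5 went from 184 to 1352.

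**Figure D5:**
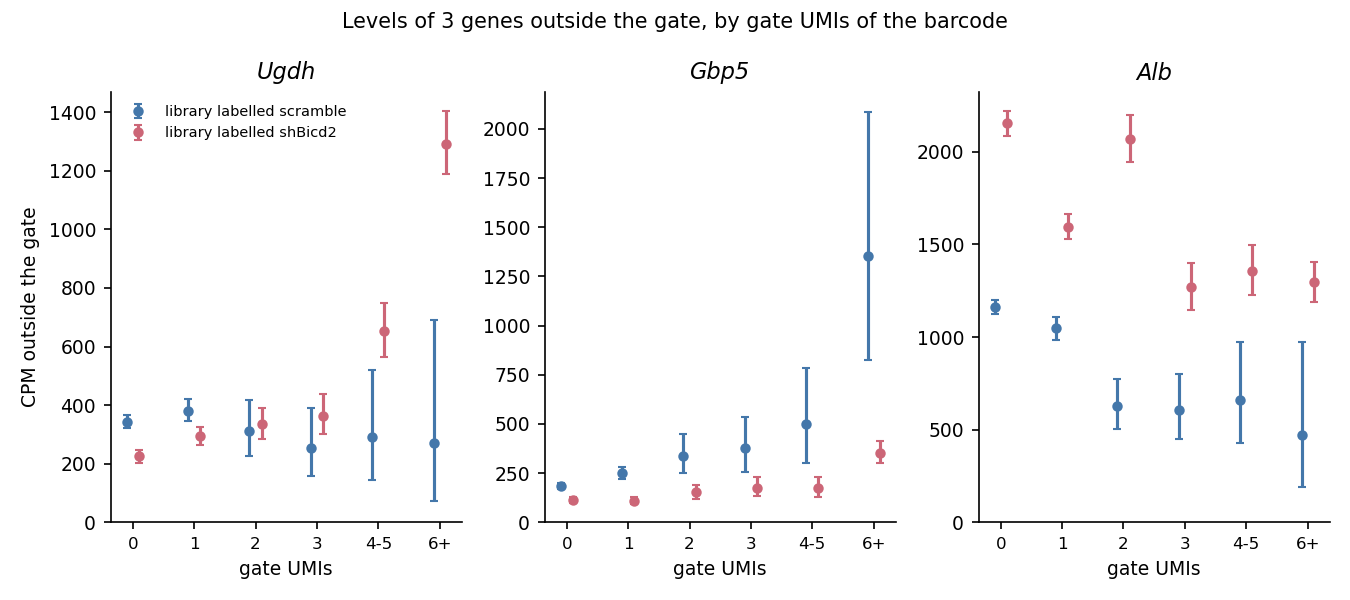
CPM outside the gate (vertical axes) of Ugdh, Gbp5 and Alb by the number of gate UMIs of a barcode (horizontal axis; 2 means 1 UMI each of 2 genes, and 3 or more are members), with exact 95% Poisson intervals, in both libraries. Ugdh reaches 1292 CPM in shBicd2 members with 6 or more gate UMIs against 270 in the 4 such scramble members, and Gbp5 reaches 353 and 1352 CPM.

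Members of the 2 libraries were last set against each other. Of 6664 genes, 35.0% were at least 1.5-fold higher in shBicd2 members and 15.0% lower, a lopsided background. The 35 scramble members held 135420 UMIs and the 414 shBicd2 members 1065327, and the part of that gap in it was not tested. The NRF2 list had 22 of 32 higher and none lower, with a median log2 ratio of 1.13, against 0.52 between the comparison barcodes of the libraries and 0.23 for all genes in members. Ugdh stood at 834 CPM in shBicd2 members and 266 in scramble members, a ratio of 3.13 (2.25 to 4.50), while comparison barcodes had 204 and 239 CPM, a ratio of 0.854 (0.576 to 1.31). Ugdh was thus higher in shBicd2 members as a whole and not in the comparison barcodes. The members were not matched between libraries on depth or on gate UMIs, whose medians were 5 and 3. Among members with exactly 3 gate UMIs, Ugdh was at 364 CPM (300 to 437) in the shBicd2-labelled library. In the scramble-labelled library such members had 254 CPM (157 to 389), so these intervals overlap. Cxcl10 went the other way, 1614 against 4442 CPM in members, a ratio of 0.363 (0.331 to 0.399), and 1972 against 1910 in comparison barcodes.

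Some other differences between the members were shared by the comparison barcodes, and for others the counts were too few to tell. Type I interferon targets had 15 of 18 at least 1.5-fold lower in shBicd2 members with a median of -1.40, and the median was -1.26 between comparison barcodes. Among the 10 lowest ratios, Cyp2c70, which makes muricholic bile acids, was at 0.161 (0.129 to 0.201) in members and 0.0972 in comparison barcodes, and Nrp1, a receptor for semaphorins and VEGF, at 0.176 and 0.0941. Upp2 was the lowest at 0.114 (0.0636 to 0.202), followed by Elovl6, Nfia, Oasl2, Ifi44, Socs2, Ccdc152 and D10Wsu102e. The 10 highest all had 0 UMIs in scramble members and are bounds against 3 counts over that group: Alpk1 was at least 8.32-fold higher, with 196 UMIs, and Myc at least 4.84-fold, while between comparison barcodes they were at 4.28 and 4.25. Prkab2, Atp6v1d and Ppp2r3a were at least 3.18-fold, 3.10-fold and 3.06-fold higher in members. Between comparison barcodes they were at 0.902 (0.316 to 3.54), 0.902 (0.382 to 2.60) and 1.10 (0.391 to 4.25). The scramble comparison barcodes held only 4, 6 and 4 UMIs of them. S100a8, Bbc3, Eml4, Clasrp and Rgs2 made up the rest, at least 2.72-fold to 4.29-fold higher.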

How the data were processed

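As deposited, both matrices hold raw UMI counts from a 10x 3' kit, per the labels' protocols. Their software field, per the file headers, reads Cell Ranger 6.1.2. Version 6.0.1 of it, Seurat 4.0.3 and the mm10 build stand in the submitters' processing notes. No source used here says if intronic reads were counted. The 35 and 414 members hold 135420 and 1065327 UMIs, which limits the scramble values. The members and gene lists were chosen with earlier results of these data known.

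Each member was matched within its library to 1 barcode with 0 gate UMIs at the nearest log2 depth outside the gate, within 0.2. This matched 34 of 35 and 404 of 414. UMIs were summed over each set in Python 3.11.15 with numpy 2.4.6 and scipy 1.17.1. Ratios have exact conditional binomial intervals, and log2 ratios had 0.5 added to each sum. A gene was measured with at least 20 UMIs over both sums. Barcodes are not replicates, so no p-value was computed. Doublets were kept, and Scrublet in scanpy 1.11.5 served as an alternative. Intervals were tested only on counts simulated from the Poisson model that they assume, which leaves out the spread between barcodes.

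Named genes were the gate, EGFP and Bicd2, the 20 highest and 10 lowest with at least 50 UMIs in the library with more members, without mitochondrial, ribosomal, hemoglobin, immunoglobulin and clone-named genes, up to 6 of each list by UMIs, and the 10 highest and 10 lowest between libraries. Fixed were 23 pathway lists and 9 lists of cell type markers. The text describes some of the genes so named, and the result of 1 of them is not reported here.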

Additional observations from a re-analysis of the deposited data

Results flagged for a closer look

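Heat shock chaperones had list medians of opposite sign in the 2 libraries. The median log2 ratio of members over comparison barcodes was 0.34 in the scramble-labelled library, over 6 measured genes, and -0.40 in the shBicd2-labelled library, over 19. Hsp90aa1 had 52 against 22 UMIs in the scramble-labelled library, a ratio of 2.34 (1.40 to 4.05), and 566 against 1055 in the shBicd2-labelled library, a ratio of 0.509 (0.459 to 0.565). Hspa1b had 85 against 37 UMIs in the scramble-labelled library and 580 against 796 in the shBicd2-labelled library. Hsp90aa1 was detected in 29.4% of scramble members and 38.2% of comparison barcodes, with 17 of its 52 UMIs in 1 member, and 38 of the 85 Hspa1b UMIs were in 1 member, so these values rest on few members. The difference between the libraries was not tested, since each is 1 library.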

How the results depend on the processing

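With 1 library in each group there is no replicate to leave out and no spread between samples. No paired analysis was possible because each group is a single library. Depth limits the scramble-labelled library most, since 34 matched members leave 1852 genes with 20 UMIs against 8086 in the shBicd2-labelled library. The alternatives were planned except the one without barcodes holding S100a8 or S100a9, which was chosen after seeing the data. The cause of each move below was not tested. The member shares of 1.35% and 14.6% and their ratio of 10.8 became 3.00%, 21.8% and 7.28 with a gate of at least 2 UMIs, 0.538%, 10.04% and 18.7 with at least 4, 0.308%, 10.4% and 33.9 without Nos2 in the gate, and 0.311%, 7.81% and 25.1 when thinned to 1000 UMIs. The shBicd2 share was 16.4% with at most 1% mitochondrial UMIs and 13.3% without barcodes holding S100a8 or S100a9.

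In the scramble-labelled library, the percent of genes at least 1.5-fold higher was 14.1 and became 23.2 without Nos2 in the gate, 8.07 with at least 50 UMIs per gene and 30.4 with no minimum beyond 1 UMI. The percent lower was 14.5 and became 26.4 without Nos2, 34.8 when thinned, 29.2 without depth matching, 7.35 with at least 50 UMIs and 31.7 with no minimum. In the shBicd2-labelled library the percent higher was 13.4 and became 21.8 when thinned and 23.1 with no minimum, and the percent lower was 10.4 and became 16.7 without EGFP barcodes, 16.5 when thinned and 21.1 with no minimum. Between libraries the percent lower was 15.0 and became 22.7 with a gate of at least 4 UMIs, 37.3 without Nos2 and 35.4 when thinned. The ratio of left-out Gclc was 2.18 with a gate of at least 2 UMIs.

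In the scramble-labelled library, 13 values of named genes past 1.5-fold turned sign on the log2 scale: Ftl1 to 0.0023 and Tdo2 to -0.18 with a gate of at least 2 UMIs, Actb to -0.071 and Ccl2 to -0.12 with at least 4, Cxcl2 to -2.03, Socs2 to 1.05 and Trp53inp1 to -0.68 without Nos2, Tdo2 to -0.75 and Hsd17b13 to 0.21 without depth matching, Actb to -0.15 without EGFP barcodes, Lpin2 to -0.042 when matched on depth and EGFP, and Cxcl2 to -0.10 and Lpin2 to -0.11 without S100a8 or S100a9 barcodes. No named gene past 1.5-fold turned sign in the shBicd2-labelled library, where 446 values of named genes lay outside the interval of the reported ratio and 1634 inside it. Over 13 alternatives there, medians ran from 0.32 to 0.74 for NRF2 genes, 0.18 to 0.71 for hypoxia genes, 0.09 to 0.80 for NF-kB genes, -0.72 to -0.42 for sterol genes and -1.16 to -0.24 for heat shock chaperones, and the interferon gamma median from -0.02 to 0.25.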
